A study of Homo sapiens with 6 samples.

Results

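Transcripts of the machinery that makes and uses microRNAs were followed in T98G cells after silencing of the kinase DYRK1A. The 10 members were the genes AGO1, AGO2, AGO3, DICER1, DROSHA, DGCR8, XPO5, TNRC6A, TNRC6B and TNRC6C, chosen by name, and each had 1 row among the 23026 genes of the spike-in normalized expression table. T98G is a human glioblastoma line. Its cells were infected with a lentivirus carrying either a control short hairpin RNA (shControl) or a hairpin against DYRK1A (shDYRK1A), selected with puromycin and left to recover without it. Libraries 1A, 1B and 1C were sequenced from each group, 3 per condition, with Kc167 cells, a fly line, added to the same T98G cell number in the same amount each time as an external scale. Both groups therefore carried a hairpin and went through selection. The promoter that drives the hairpin is not given in the sources used here, and the model is a single tumor line with a single hairpin per condition in these libraries.

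MicroRNAs are cut from long primary transcripts in the nucleus by the Microprocessor, which joins the nuclease DROSHA to the RNA-binding protein DGCR8. Exportin 5, encoded by XPO5, carries the hairpin to the cytoplasm, DICER1 trims it to a duplex, and an Argonaute protein (AGO1 to AGO4) keeps 1 strand as a guide to partly complementary messages. The GW182 proteins TNRC6A, TNRC6B and TNRC6C bind Argonaute and recruit the deadenylases that shorten the poly(A) tail of the target. Vector-encoded short hairpin RNAs use the same route from export onward, and AGO2 is the Argonaute best known for slicing a fully paired target.

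Human gene counts summed to between 33708297 and 42154438 per library. The shDYRK1A 1B library stood apart: 15.6% of its reads were unmapped against 8.44 to 11.9% in the others, and its chi-square per gene was 12.4 and 15.2 against the other shDYRK1A libraries, which differed from each other by 4.17. The mesenchymal glioma markers VIM (1530 to 1975 counts per 1000000 gene counts, CPM) and CD44 (1401 to 1591 CPM) were abundant in the 6 libraries, whereas the other 5 glioblastoma markers checked were low or absent: NES at 1.29 to 2.02 CPM, OLIG2 at 1.06 to 1.87 CPM, SOX2 at 0 to 2 raw counts, GFAP at 0 to 4 raw counts and S100B at 0. Of the neuronal and immune markers checked, SNAP25 was the highest, at 9.83 to 11.2 CPM in shControl and 5.61 to 6.06 CPM in shDYRK1A. SYT1 was next, at 0.386 to 0.902 CPM over both groups. The target DYRK1A had 46.8, 47.0 and 47.5 TMM-scaled CPM in shControl and 39.6, 34.3 and 37.9 in shDYRK1A, so the message was lowered but still present. TMM scaling sets each library to the bulk of its human genes, and spike-in scaling sets it to the fly cells. The log2 fold change of DYRK1A, shDYRK1A minus shControl, was -0.34 ± 0.06 (SE) after TMM scaling and -0.73 ± 0.15 (SE) with spike-in scaling. Nothing in the labels says that the libraries came from separate cultures, so p-values measure the spread between these libraries only.

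Mature microRNAs lie inside 2 of the members, and their sequences are shown because DGCR8 messages are themselves known to be cut by the Microprocessor at hairpins. In RefSeq (GRCh38.p14), the hairpin of miR-3618 lies in an untranslated exon of DGCR8 and that of miR-1306 in a coding exon, both on the plus strand of chromosome 22, and that of miR-3173 lies in an intron of DICER1 on the minus strand of chromosome 14. Capitals mark the seed, bases 2 to 8, and none of the 5 mature forms shares its seed with another. The levels of the mature forms were not analysed here, since the libraries hold messenger RNA.
hsa-miR-3618 (chr22:20085797-20085818): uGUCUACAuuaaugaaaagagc
hsa-miR-1306-5p (chr22:20086072-20086093): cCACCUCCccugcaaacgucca
hsa-miR-1306-3p (chr22:20086112-20086129): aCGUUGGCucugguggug
hsa-miR-3173-5p (chr14:95137961-95137982): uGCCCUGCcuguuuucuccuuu
hsa-miR-3173-3p (chr14:95137923-95137944): aAAGGAGGaaauaggcaggcca

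On the spike-in scale the members were lower after DYRK1A silencing, to about the degree of the other human genes. Of the 10 members, 6 fell at an adjusted p below 0.05 (XPO5, AGO2, AGO3, DGCR8, TNRC6B and DROSHA), 0 rose and 4 did not pass (DICER1, TNRC6C, AGO1 and TNRC6A). The test was edgeR's quasi-likelihood test with Benjamini-Hochberg adjustment over 9697 genes, of which 63.4% were called lower and 1.08% higher. At an unadjusted p below 0.05, 7 members were lower and 0 higher. The shDYRK1A libraries lay wholly below the shControl libraries for 7 members, against 63.6% of all genes tested, and wholly above for 0, against 1.59%. The study's own threshold was taken here as an adjusted p below 0.05 together with a log2 fold change past 0.7 in either direction. It was reached by 0 members, against 14.3% of genes lower and 0.278% higher. The median log2 fold change was -0.39 over the members and -0.40 over all genes tested. A count of 6 rested on the libraries used: XPO5, AGO2 and AGO3 alone passed when shControl 1A, shControl 1B, shDYRK1A 1B or shDYRK1A 1C was left out, whereas 10 members passed without shControl 1C and 9 without shDYRK1A 1A. In bulk RNA, fewer T98G cells per fly cell and less RNA per T98G cell cannot be told apart on this scale.

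**Figure D1:**
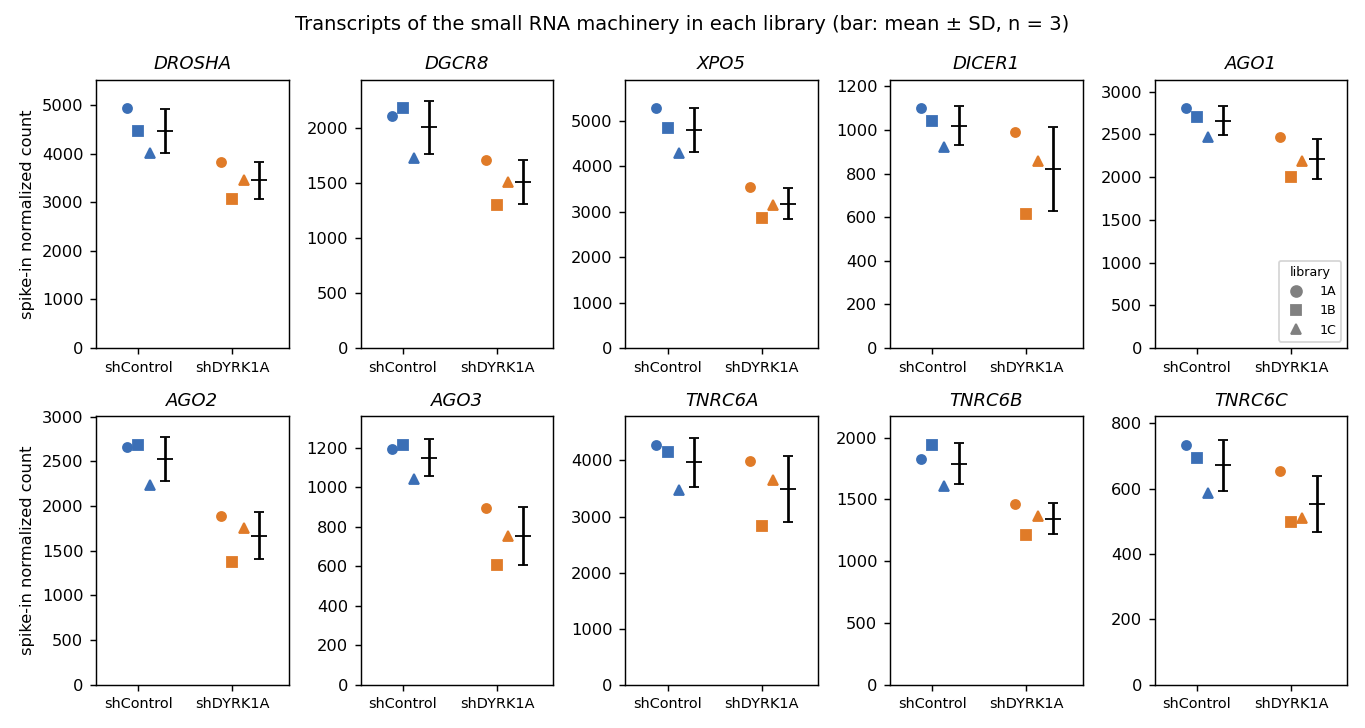
Spike-in normalized counts of the 10 members (vertical axes from 0) in the 3 shControl (blue) and 3 shDYRK1A (orange) libraries, with marker shape giving the library letter and bars the mean ± SD. The shDYRK1A libraries lie below every shControl library for 7 members and overlap them for DICER1, TNRC6A and TNRC6C.

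Relative to the bulk of the human genes the members parted in both directions, by small amounts. After TMM scaling, XPO5, AGO2 and AGO3 fell, AGO1 and TNRC6A rose, and DROSHA, DGCR8, DICER1, TNRC6B and TNRC6C did not pass. The shares of all genes tested were 28.6% lower and 27.3% higher, so 3 and 2 of 10 members are near the background. Groups were separate for 3 members with shDYRK1A below and 2 above, against 32.5% and 30.7% of all genes. The study's threshold, with the same condition on the adjusted p, was reached by 0 members, against 1.93% of genes lower and 1.25% higher. The median over the members was 0.01 and that over all genes 0.00188 on the log2 scale. XPO5, AGO2 and TNRC6A kept their calls in 6 of 6 fits that left out 1 library. AGO3 lost its call in 3 of them, without shControl 1B, shControl 1C or shDYRK1A 1B (log2 fold changes of -0.22, -0.20 and -0.14). AGO1 lost its call in 4, without shControl 1A, shControl 1B, shDYRK1A 1A or shDYRK1A 1C (0.13, 0.10, 0.13 and 0.14), as it did under other expression filters and under median-of-ratios scaling. The normalized counts of the 10 members summed to 25054 ± 2365 in the shControl libraries and to 18983 ± 2532 in the shDYRK1A libraries (SD, n = 3 each), whereas their CPM summed to 553 ± 9.83 and 561 ± 32.5.

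**Figure D2:**
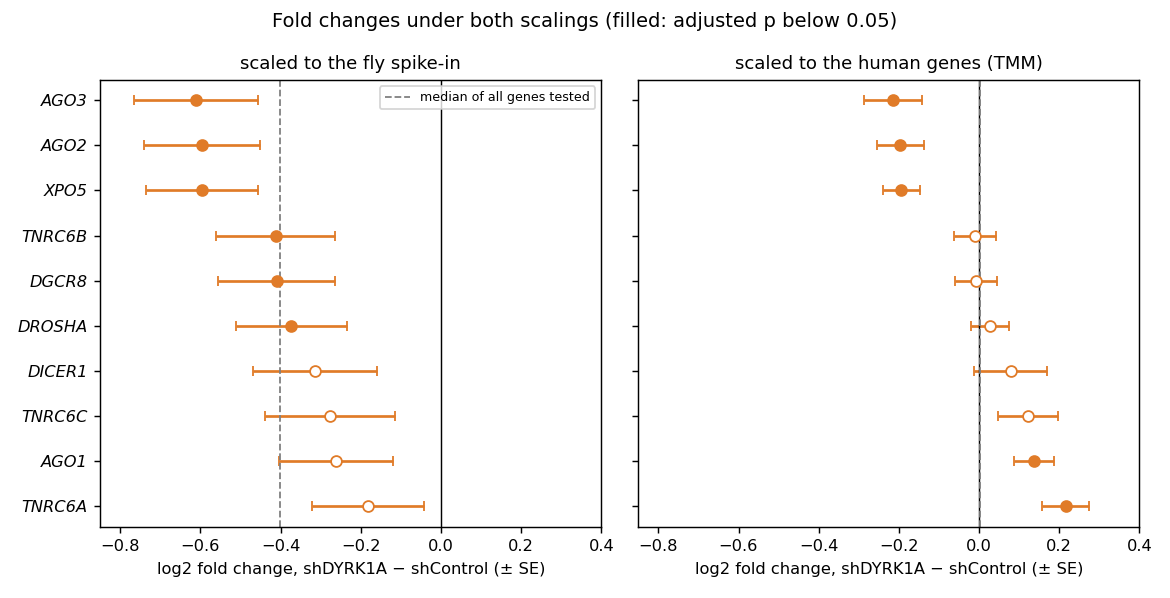
Log2 fold changes of the members (horizontal axis, shDYRK1A minus shControl, ± SE) after spike-in scaling on the left and TMM scaling on the right, with filled points for adjusted p below 0.05 and a dashed line at the median of all 9697 genes. The order of the members is shared by both panels, and the dashed line moves from -0.40 to near 0.

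The Microprocessor subunits were examined first, and both followed the general shift. DROSHA (ENSG00000113360, GRCh38, chr5:31400497-31532196, minus strand), the nuclease, had normalized counts of 4929, 4470 and 4012 in shControl and 3839, 3062 and 3450 in shDYRK1A. The groups did not overlap, and the log2 fold change was -0.37 ± 0.14 (SE) with an edgeR adjusted p of 0.0136. After TMM scaling the libraries overlapped, at 104, 94.1 and 101 CPM against 103, 99.5 and 102 CPM. The difference was then 0.03, with a 95% interval from -0.06 to 0.12. This interval and the later ones use a normal approximation, which makes them somewhat too narrow with so few libraries.

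DGCR8 (ENSG00000128191, chr22:20080232-20111877, plus strand), the partner that grips the hairpin stem, had 2107, 2178 and 1730 normalized counts in shControl and 1711, 1305 and 1512 in shDYRK1A. Each shDYRK1A library was below each shControl library, the closest pair being shDYRK1A 1A and shControl 1C, and the log2 fold change was -0.41 ± 0.15 (SE, edgeR adjusted p = 0.0102). On the TMM scale it was -0.01, with a 95% interval from -0.11 to 0.10. The log2 ratio of DROSHA to DGCR8 counts averaged 1.16 ± 0.11 without silencing and 1.20 ± 0.03 with it (SD, n = 3 each), and the groups overlapped (two-sided exact permutation p = 0.8). Exons of DGCR8 share 7.22% of their length with genes on the opposite strand, mostly an antisense transcript, and 2.37% with the 2 microRNA hairpins named above. The library kit marks strand, but the strand setting of the counting is not given in the sources used here.

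XPO5 (ENSG00000124571, chr6:43522330-43576075, minus strand), the export receptor of the precursor hairpin, fell on both scales. Normalized counts stood at 5264, 4833 and 4295 in shControl against 3529, 2856 and 3133 in shDYRK1A, and its TMM-scaled values were 111, 102 and 108 CPM against 94.3, 92.8 and 92.5 CPM. The groups were separate on both scales, with the 3 shDYRK1A values within 2 CPM of each other after TMM scaling. The log2 fold change was -0.60 ± 0.14 (SE, edgeR adjusted p = 8.6e-05) on the spike-in scale and -0.19 ± 0.05 (SE, edgeR adjusted p = 0.00367) after TMM scaling. Raw counts, which also depend on depth, were 4259 to 4411 in shControl and 3083 to 3804 in shDYRK1A. The lowest came from shDYRK1A 1B, the library with the fewest gene counts. Opposite-strand exons of POLR1C cover 4.08% of its exon length.

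DICER1 (ENSG00000100697, chr14:95086228-95158010, minus strand), which cuts the precursor in the cytoplasm, varied most among the shDYRK1A libraries relative to its mean. Normalized counts stood at 1098, 1039 and 922 in shControl against 992, 612 and 856 in shDYRK1A. The groups overlapped, since shDYRK1A 1A lay above shControl 1C, and the low value belonged to the library that stood apart. The log2 fold change was -0.31 ± 0.15 (SE, edgeR adjusted p = 0.0618) and, after TMM scaling, 0.08, with a 95% interval from -0.10 to 0.26. Without shDYRK1A 1B the TMM value was 0.19 and passed (edgeR adjusted p = 0.0113), and the spike-in value was -0.14 (edgeR adjusted p = 0.45), so its call after TMM scaling depended on that library and its sign on the scale. The log2 ratio of DICER1 to DROSHA was -1.95, -2.32 and -2.01 in shDYRK1A, on either side of the shControl range of -2.17 to -2.10 (exact permutation p = 0.9).

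Of the Argonaute genes, AGO2 and AGO3 fell on both scales. In the edgeR fits of all 6 libraries AGO1 passed only after TMM scaling, as higher. AGO2 (ENSG00000123908, chromosome 8, minus strand) had normalized counts of 2655, 2680 and 2237 in shControl and 1885, 1375 and 1749 in shDYRK1A. After TMM scaling it had 55.8, 56.4 and 56.1 CPM in shControl and 50.4, 44.7 and 51.6 CPM in shDYRK1A. The control libraries were within 1 CPM of each other and each shDYRK1A library was below them, with 1B the lowest. The fold change was -0.60 ± 0.14 on the log2 spike-in scale (SE, edgeR adjusted p = 0.000148) and -0.20 ± 0.06 after TMM scaling (SE, edgeR adjusted p = 0.0137), and without shDYRK1A 1B it was -0.47 and -0.13.

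AGO3 (ENSG00000126070, chr1:35930718-36072500, plus strand), a paralog of AGO2 that starts 189 bases past the end of AGO1, had 1193, 1214 and 1044 normalized counts in shControl and 897, 606 and 756 in shDYRK1A. The groups did not overlap. The log2 fold change of -0.61 ± 0.15 (SE, edgeR adjusted p = 0.000287) was the lowest among the members, and after TMM scaling it was -0.22 ± 0.07 (SE, edgeR adjusted p = 0.0239). Its TMM-scaled levels were 25.1, 25.6 and 26.2 CPM in shControl and 24.0, 19.7 and 22.3 CPM in shDYRK1A, with the nearest libraries of the groups about 1 CPM apart.

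AGO1 (ENSG00000092847, chr1:35869808-35930528, plus strand), the neighbor upstream of AGO3, had 2804, 2704 and 2475 normalized counts in shControl and 2467, 2001 and 2185 in shDYRK1A. The groups were separated by less than 10 counts, and the log2 fold change of -0.26 ± 0.14 did not pass (SE, edgeR adjusted p = 0.0912). On this scale AGO1 did pass as lower with the DESeq2 Wald test (adjusted p = 0.0425). It also passed as lower without shControl 1C or without shDYRK1A 1A (edgeR adjusted p = 0.0249 and 0.045). After TMM scaling the order turned, with 58.9, 56.9 and 62.0 CPM in shControl and 65.9, 65.0 and 64.5 CPM in shDYRK1A. The value of 0.14 ± 0.05 on the log2 scale passed the test (SE, edgeR adjusted p = 0.0337), with the losses of the call given above.

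AGO4 (ENSG00000134698, chr1:35808172-35857890, plus strand) is not a member and lies upstream of AGO1 in the same cluster. At a mean of 9.68 CPM it was below the expression filter of 10 CPM, and a fit with edgeR's filterByExpr gave -0.13 ± 0.17 (SE, adjusted p = 0.533) with spike-in scaling and 0.24 ± 0.09 (SE, adjusted p = 0.041) with TMM. Its TMM-scaled CPM was 8.80, 8.91 and 8.83 in shControl and 10.3, 10.2 and 11.4 in shDYRK1A, without overlap.

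Ratios of raw counts within a library need no scaling and were computed for 8 pairs of members. The log2 ratio of AGO2 to AGO1 was -0.08, -0.01 and -0.15 in shControl and -0.39, -0.54 and -0.32 in shDYRK1A, a difference of -0.34 ± 0.08 (SE). That of AGO3 to AGO1 was -1.23, -1.16 and -1.25 in shControl and -1.46, -1.72 and -1.53 in shDYRK1A, a difference of -0.36 ± 0.08 (SE). In both pairs every shDYRK1A library was below every shControl library, and without shDYRK1A 1B the differences were -0.28 and -0.28. The two-sided exact permutation p was 0.1 for each, the smallest that 3 libraries against 3 allow, and 0.267 after adjustment over the 8 ratios. The share of other gene pairs with separate groups was not computed. Among single genes after TMM scaling, 32.5% were wholly lower and 30.7% wholly higher in shDYRK1A. The groups overlapped for AGO3 to AGO2, with log2 ratios of -1.13 ± 0.03 and -1.15 ± 0.07 (SD, 3 libraries each; exact permutation p = 0.7).

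Read per kilobase of exon, AGO1 was the most abundant Argonaute message. Of the summed normalized count per kilobase of AGO1 to AGO4, AGO1 held 41.7% ± 1.05 (SD, n = 3) in shControl and 45.7% ± 1.76 in shDYRK1A. The share of AGO2 was 34.6% ± 0.72 and 30.0% ± 1.19, that of AGO3 11.8% ± 0.152 and 10.1% ± 0.684, and that of AGO4 11.9% ± 0.262 and 14.2% ± 0.715. For each of the 4 genes the ranges of the 2 groups were separate, AGO1 and AGO4 being higher and AGO2 and AGO3 lower in shDYRK1A. Since the shares add up to the whole within a library, a fall of some forces a rise of others, and these are not 4 separate results. How often shares in other gene families separate was not computed. Of single genes after TMM scaling, 32.5% were wholly lower and 30.7% wholly higher in shDYRK1A. These lengths count every annotated exon, so a share depends on how much of the long 3′ UTRs is used in T98G.

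The GW182 genes differed in the calls they reached. TNRC6A (ENSG00000090905, chr16:24610209-24827632, plus strand) had normalized counts of 4272, 4148 and 3474 in shControl and 3987, 2838 and 3651 in shDYRK1A, which overlapped (log2 fold change -0.18 ± 0.14 SE, edgeR adjusted p = 0.231). After TMM scaling it had 89.7, 87.3 and 87.1 CPM in shControl and 107, 92.2 and 108 CPM in shDYRK1A. Each shDYRK1A library was above the control range, 1B by the least, and the log2 fold change of 0.22 ± 0.06 (SE, edgeR adjusted p = 0.0084) was the highest among the members.

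TNRC6B (ENSG00000100354, chr22:40044817-40335808, plus strand) had 1825, 1939 and 1608 normalized counts in shControl and 1460, 1212 and 1363 in shDYRK1A. The groups were separate and the log2 fold change was -0.41 ± 0.15 (SE, edgeR adjusted p = 0.0107). After TMM scaling it was -0.01, with a 95% interval from -0.11 to 0.09.

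TNRC6C (ENSG00000078687, chr17:77959240-78108835, plus strand), the member with the fewest counts before correction for length, had 733, 694 and 585 normalized counts in shControl and 653, 498 and 509 in shDYRK1A, which overlapped. It passed on neither scale, with log2 fold changes of -0.28 ± 0.16 (SE, edgeR adjusted p = 0.117) and 0.12 ± 0.08 (SE, edgeR adjusted p = 0.183). Opposite-strand exons of TNRC6C-AS1 cover 12.9% of its exon length.

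The log2 ratio of TNRC6B to TNRC6A was -1.23, -1.10 and -1.11 in shControl and -1.45, -1.23 and -1.42 in shDYRK1A. The groups were apart by less than 0.01 at their nearest libraries, and the difference was -0.22 ± 0.08 (SE, exact permutation p = 0.1, adjusted 0.267). For TNRC6C to TNRC6A the difference was -0.09 (exact permutation p = 0.5) and for TNRC6C to TNRC6B it was 0.13 (exact permutation p = 0.2), with overlapping groups. Per kilobase, TNRC6A held 67.2% ± 0.536 (SD, n = 3) of the GW182 messages in shControl and 69.6% ± 1.88 in shDYRK1A, which overlapped.

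**Figure D3:**
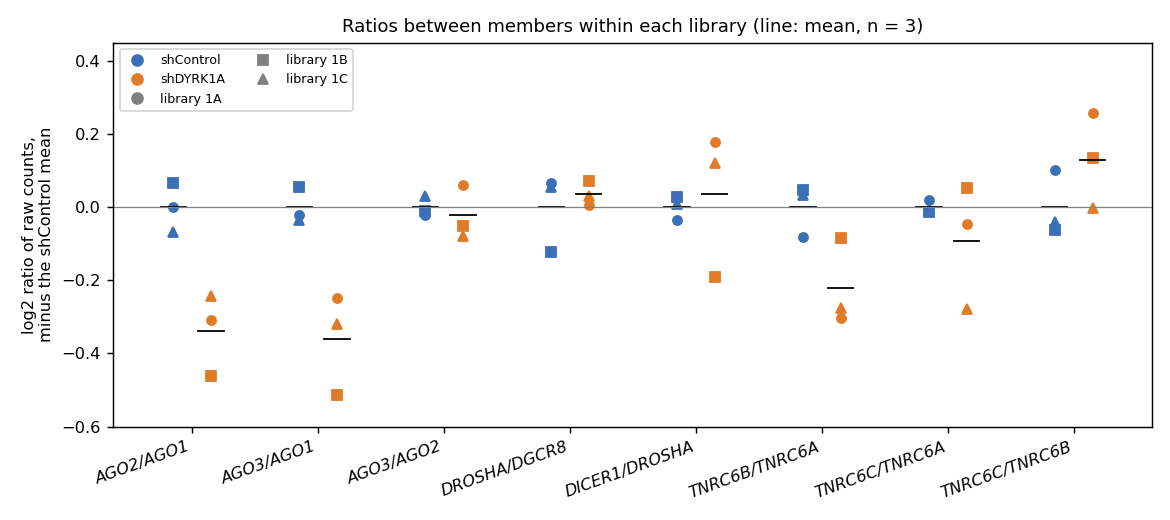
Log2 ratios of raw counts between members in each library, with the shControl mean of each ratio set to 0 (vertical axis), shControl in blue, shDYRK1A in orange and lines at the mean of 3 libraries. AGO2/AGO1, AGO3/AGO1 and TNRC6B/TNRC6A have every shDYRK1A library below every shControl library, and the other 5 ratios overlap.

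Levels can be ranked between members only per kilobase of exon. In shControl the normalized count per kilobase was 575 ± 58.9 (SD, n = 3) for DROSHA, 563 ± 57.0 for XPO5, 307 ± 33.2 for TNRC6A, 274 ± 32.9 for DGCR8, 192 ± 12.1 for AGO1, 159 ± 15.7 for AGO2, 89.6 ± 8.40 for TNRC6B, 83.0 ± 7.29 for DICER1, 60.4 ± 6.90 for TNRC6C and 54.4 ± 4.39 for AGO3. The mean ± SD of DROSHA overlapped that of XPO5, as did those of TNRC6A and DGCR8, TNRC6B and DICER1, and TNRC6C and AGO3. Within each shControl library, however, the first-named gene of each pair was the higher. TNRC6A, for example, stood at 331, 321 and 269 against 288, 298 and 237 for DGCR8. The nuclear nuclease was thus measured at a higher message level than the cytoplasmic one in each of the 6 libraries.

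AGO1 and AGO3 are neighbors transcribed in the same direction, the end of AGO1 lying just before the start of AGO3. The 250 bases before each RefSeq start (GRCh38.p14, plus strand) are shown because these neighbors were compared as a ratio. Capitals mark CpG dinucleotides, of which there are 25 before AGO1 and 41 before AGO3, at GC contents of 71.6% and 80%. RefSeq starts differ from the gene starts above, which include the outermost transcript.
AGO1 upstream (chr1:35882959-35883208): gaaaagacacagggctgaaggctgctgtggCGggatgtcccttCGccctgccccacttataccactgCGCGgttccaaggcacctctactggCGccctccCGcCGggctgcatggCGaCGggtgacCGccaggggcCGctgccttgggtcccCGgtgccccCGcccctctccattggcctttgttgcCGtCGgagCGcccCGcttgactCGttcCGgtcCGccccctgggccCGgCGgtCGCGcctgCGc
AGO3 upstream (chr1:35930855-35931104): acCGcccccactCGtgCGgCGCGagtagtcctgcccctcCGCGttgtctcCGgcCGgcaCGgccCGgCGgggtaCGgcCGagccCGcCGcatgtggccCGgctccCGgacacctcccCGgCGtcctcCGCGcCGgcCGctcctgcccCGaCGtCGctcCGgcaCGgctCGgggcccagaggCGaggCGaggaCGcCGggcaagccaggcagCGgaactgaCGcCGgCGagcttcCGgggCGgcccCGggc

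CTCGCGAG, the core of the palindrome that the study ties to DYRK1A at promoters, was searched between 250 bases before and 50 after RefSeq starts and reads the same on both strands. It occurs in 358 of 35116 promoters (1.02%). None of the members with a RefSeq promoter entry holds it, and AGO2 has no entry. The study graded motif matches by p-value and measured DYRK1A binding by ChIP-Seq, so this exact search is a different measure. With so rare a word, its absence from so few promoters says nothing about binding.

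Long 3′ UTRs, the part of a message that microRNAs mostly bind, set several members apart. They measure 16755 bases in AGO3, 12567 in TNRC6B, 11888 in AGO2 and 10921 in AGO1, against a median of 1186 over 9316 genes tested, and 935 to 4270 bases in the other 6 members. Among all genes tested, the median log2 fold change after TMM scaling was 0.05 for UTRs under 1000 bases and -0.09 for the 94 genes with 10000 bases or more. Of the 4 members with such long UTRs, AGO2 and AGO3 were below that median, TNRC6B was above it at -0.01 and AGO1 above it at 0.14.

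The 7-base word TGAAGTA in 3′ UTRs was picked from the fold changes of these same libraries, so its presence in a member supports nothing here and is given as a description. It occurs in 13.2% of genes tested and in 61.7% of those with UTRs of 10000 bases or more. Among members it occurs 5 times in AGO3, 2 times in AGO2 and 1 time in AGO1, and 0 times in the others, TNRC6B included. Of these sites, 4 in AGO3 and that in AGO1 are printed, since these neighbors were compared as a ratio. Each has 11 bases of flank on each side and the word in capitals (GRCh38, plus strand).
AGO3 site (chr1:36060798-36060826): ctttatccataTGAAGTAttcattatttt
AGO3 site (chr1:36061544-36061572): agaaaccctgtTGAAGTAtcaggtaaatg
AGO3 site (chr1:36065753-36065781): cttgaccgcagTGAAGTActtgatggctt
AGO3 site (chr1:36072436-36072464): tagcttcagttTGAAGTAtaactttcact
AGO1 site (chr1:35927140-35927168): tttgggtacttTGAAGTActtagctaggt

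The partners of the members were counted from 5 lists of 62 genes, of which 58 passed the expression filter. With spike-in scaling 46 were lower, 1 was higher and 11 did not pass, with a median of -0.41, and after TMM scaling 16 were lower, 10 higher and 32 did not pass, with a median of -0.01. These shares lie beside 63.4% lower and 1.08% higher, and 28.6% lower and 27.3% higher, among all genes.

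Of 8 Microprocessor cofactors, 3 fell and 1 rose after TMM scaling. ERH, a small protein that binds DGCR8, was the lowest (log2 fold change -0.35 ± 0.06 SE), with normalized counts of 5119, 4690 and 4001 in shControl and 3029, 2620 and 2534 in shDYRK1A. DDX5, an RNA helicase of the complex, was the highest at 0.17 ± 0.04 (SE, edgeR adjusted p = 0.00567), but at -0.23 on the spike-in scale it did not pass.

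Of the 5 export and dicing partners, 1 fell and 2 rose after TMM scaling. XPO1, the general export receptor, had normalized counts of 17012, 17195 and 13869 in shControl and 9527, 7059 and 8835 in shDYRK1A, a log2 fold change of -0.92 ± 0.13 (SE) with spike-in and -0.52 ± 0.05 (SE) with TMM scaling. The DICER1 partners TARBP2 and PRKRA rose after TMM scaling by 0.36 ± 0.07 and 0.18 ± 0.04 (SE, edgeR adjusted p = 0.00147 and 0.00462), and their spike-in values of -0.05 and -0.23 did not pass. TARBP2 had 1691, 1483 and 1376 normalized counts in shControl and 1529, 1477 and 1401 in shDYRK1A, which overlapped. ADAR, which edits double-stranded RNA, was at 0.04 after TMM scaling and -0.36 on the spike-in scale (edgeR adjusted p = 0.575 and 0.0118).

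Of the chaperones that open Argonaute for loading, 6 of 6 tested fell with spike-in scaling, against 63.4% of all genes, and 4 of 6 after TMM scaling, against 28.6%, with medians of -0.62 and -0.21. After TMM scaling HSPA8 (-0.0023) and STIP1 (0.04) did not pass. HSP90AA1, the inducible HSP90, was the lowest, with normalized counts of 84809, 80941 and 69098 in shControl and 49980, 40298 and 47267 in shDYRK1A, and log2 fold changes of -0.77 and -0.37. STIP1, which hands clients to HSP90, was the highest, at -0.37 with spike-in scaling (edgeR adjusted p = 0.00956; 0.463 after TMM scaling).

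Among 26 effectors of deadenylation, decapping and repression, 6 fell, 4 rose and 16 did not pass after TMM scaling. XRN1, the exonuclease that degrades decapped messages, was the lowest, with normalized counts of 1990, 1834 and 1663 in shControl and 1166, 770 and 1006 in shDYRK1A and log2 fold changes of -0.90 and -0.50. PAN2, a deadenylase that TNRC6 proteins recruit, was the highest. Its counts of 2113, 2153 and 1915 in shControl and 2245, 1784 and 2067 in shDYRK1A overlapped, and its log2 fold change was -0.02 with spike-in and 0.38 ± 0.05 (SE) with TMM scaling.

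Of 13 tested factors of small RNA turnover or associated with silencing complexes, 2 fell and 3 rose after TMM scaling. TSN, the translin subunit of a nuclease that removes the passenger strand during loading of Argonaute, had normalized counts of 5494, 5326 and 4538 in shControl and 1553, 1335 and 1558 in shDYRK1A. The groups were far apart, and the log2 fold change was -1.79 ± 0.14 (SE, edgeR adjusted p = 6.26e-32) with spike-in and -1.38 ± 0.05 (SE) with TMM scaling, whereas its partner TSNAX was at -0.52 and -0.11. ZC3H12A, a nuclease that cuts inflammatory messages and precursor hairpins, was the 1 pathway gene that rose with spike-in scaling, a call lost without shControl 1A or shDYRK1A 1C, and it rose after TMM scaling too, with 614, 680 and 550 normalized counts against 886, 779 and 822 and log2 fold changes of 0.43 ± 0.16 and 0.84 ± 0.07 (SE). FMR1, named after its value was seen, was the other gene of this list that fell after TMM scaling (-0.63 ± 0.06 SE). LIN28A, LIN28B and TRIM71 were not tested.

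**Figure D4:**
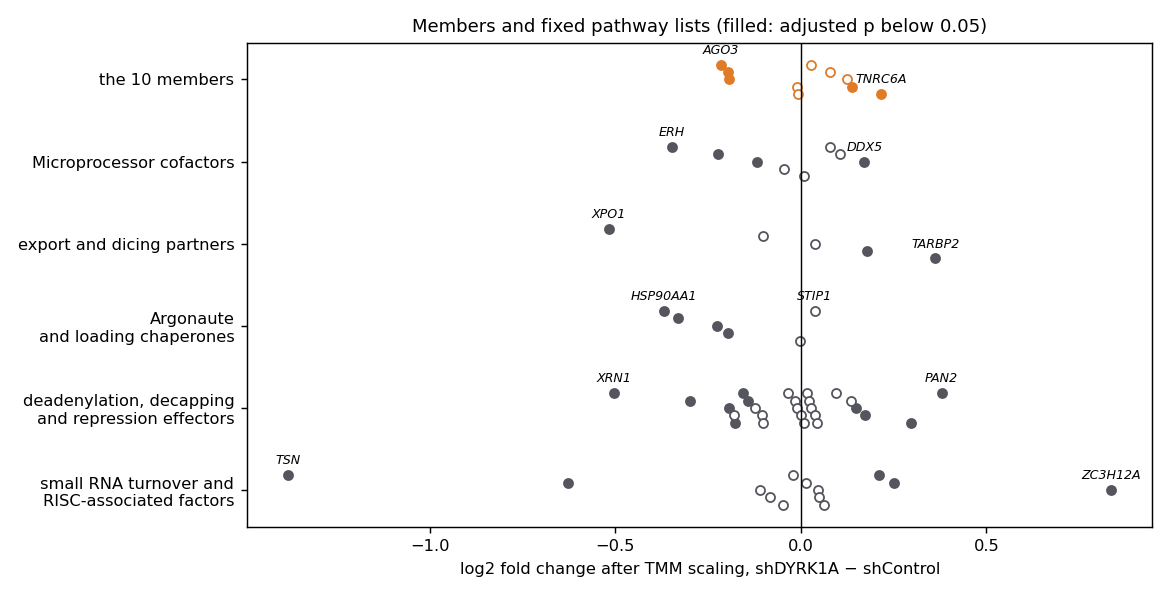
Log2 fold changes after TMM scaling (horizontal axis) of the 10 members (orange) and of the tested genes of 5 pathway lists (gray), with filled points for adjusted p below 0.05 and names at both ends of each row. The members lie between -0.22 and 0.22, and TSN at -1.38 and ZC3H12A at 0.84 lie farthest from 0.

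Host transcripts were taken by name only, as MIR names ending in HG, so hosts such as DGCR8 and DICER1 are outside this count. Of 26 such host transcripts in the normalized table of 23026 genes, 5 passed the filter, which 9697 genes passed in all. Among all genes tested, 63.4% were called lower with spike-in scaling, and 28.6% lower and 27.3% higher after TMM scaling. After TMM scaling MIR4458HG, MIR22HG and MIR100HG rose by 0.35 ± 0.07, 0.32 ± 0.08 and 0.21 ± 0.06 on the log2 scale (SE, edgeR adjusted p = 0.00221, 0.00495 and 0.0113), and their spike-in values of -0.06, -0.10 and -0.20 did not pass. MIR4435-2HG had 3019, 2857 and 2282 normalized counts in shControl and 1902, 1913 and 1740 in shDYRK1A, a fall of -0.55 ± 0.14 (SE, edgeR adjusted p = 0.000394) on the spike-in scale, with -0.14 after TMM scaling not passing. MIR210HG passed on neither scale, at -0.30 and 0.10.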

How the data were processed

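Libraries of T98G cells, 3 with shControl and 3 with shDYRK1A, were grouped by their sample titles. The authors deposited raw gene counts per library from stranded paired-end mRNA reads, and a table of normalized signal for 23026 genes, in which each library's counts are divided by 1 constant that the study's methods derive from fly spike-in reads. The submitters' processing notes name STAR, DESeq2, hg38 and dm3. Another deposited table, with the authors' fold changes and p-values, was not used. The number of per-sample columns matching no sample was 0. Reads outside genes were left out of library sizes: 8.44 to 15.6% of reads were unmapped, 2.26 to 2.49% multimapping, 3.66 to 4.81% in no feature and 3.42 to 3.59% ambiguous.

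The members and lists were chosen with earlier results of these data known. Genes with a mean normalized count above 10 CPM of the mean library size were kept (9697). Counts were tested with edgeR 4.0.16 (R 4.3.3; glmQLFit and glmQLFTest, robust), with the spike-in constants or TMM as scaling and Benjamini-Hochberg adjustment over all genes kept. Ratios between members were compared by two-sided exact permutation tests (Python 3.11.15). Only the edgeR fits, under both scalings, were tested on simulated data. Exon lengths, UTRs and overlaps came from GENCODE v29, whose coordinates equalled those of 95.83% of the table's genes, and microRNAs and promoters from RefSeq. Promoter entries were matched by symbol. Named genes are the members, DYRK1A, AGO4, TARBP2, PRKRA, ADAR, and microRNA host transcripts past the filter. The lowest and highest tested gene of each list with spike-in scaling are also named, and TMM scaling gives the same genes. TSNAX, POLR1C and the cell markers were added as partners or checks. Alternatives were median-of-ratios scaling, filterByExpr, no filter, DESeq2 1.42.0, the replicate letter as a block, other thresholds and each library left out. The sequence of a further site is not reported here.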

Additional observations from a re-analysis of the deposited data

How the results depend on the processing

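Counts of members past an adjusted p of 0.05 with spike-in scaling ranged from 3 to 10 when 1 library was left out, against 6 with every library. Members past the study's threshold ranged from 0 to 1 (1 without shDYRK1A 1A) and numbered 3 at a log2 threshold of 0.5. With TMM scaling, leaving out 1 library gave 3 to 5 members, and pathway genes with spike-in scaling ranged from 26 to 53 against 47. DESeq2 and other filters kept the counts of members and pathway genes at an adjusted p of 0.05 within 1.5 times. Under median-of-ratios scaling 4 members passed, 3 lower and 1 higher. The median over members moved from -0.39 to 0.011 under TMM and -0.022 under median-of-ratios scaling, a change set by the scaling itself. Under these 2 scalings DICER1 turned to 0.079 and 0.047, AGO1 to 0.14 and 0.10, TNRC6A to 0.22 and 0.18, and TNRC6C to 0.12 and 0.090, while DROSHA turned to 0.028 under TMM. DROSHA on the TMM scale in turn gave -0.0025 with filterByExpr, -0.019 without a filter and -0.0044 with median of ratios. When 1 library was left out, TMM values ranged from -0.016 to 0.054 for DROSHA, from -0.030 to 0.025 for DGCR8 and from -0.041 to 0.0029 for TNRC6B. Ratios ranged from -0.064 to 0.0055 for AGO3/AGO2, from -0.024 to 0.070 for DROSHA/DGCR8, from -0.036 to 0.15 for DICER1/DROSHA and from -0.16 to 0.0028 for TNRC6C/TNRC6A. The cause of these changes was not tested.

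The labels do not say whether the letters 1A, 1B and 1C pair the libraries. Deviations of same-letter libraries from their group means correlated at 0.15, 0.073 and 0.13 across genes on the spike-in scale. Those of libraries with different letters correlated at -0.094 to -0.014, so every library correlated best with its own letter. What the libraries of a letter share was not tested. With the letter as a replicate block, 6 members passed with spike-in and 5 with TMM scaling, 0 passed the study's threshold, 45 and 26 pathway genes passed, and the members' median was -0.39.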
